A study of Mus musculus with 24 samples.

Results

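The TGF-beta ligands, receptors, SMADs and latent binding proteins followed here are 9 genes, namely Tgfb1, Tgfb2, Tgfb3, Tgfbr1, Tgfbr2, Smad3, Smad7, Ltbp1 and Ltbp2. They were taken by mouse gene symbol from the 56205 gene rows of a count table, and all 9 were found once each. The table holds poly(A) RNA-Seq of liver from C57BL/6J mice of both sexes. For 20 weeks, 12 mice received a high-fat food deficient in methionine and choline (the MCD diet), and 12 received the control diet for MCD. The MCD diet is a nutritional model of steatohepatitis with fibrosis. The mice carried no transgene or deletion, and their age was not given in the sources used here. The comparison asks which parts of the TGF-beta system differed in RNA level between the diets.

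TGF-beta is secreted as an inactive (latent) complex, in which a propeptide encloses the growth factor and a latent TGF-beta binding protein (LTBP) tethers it to extracellular matrix. Integrins, thrombospondin and proteases can free the factor. It then binds the type II receptor TGFBR2, which recruits and phosphorylates the type I receptor TGFBR1. TGFBR1 phosphorylates SMAD2 and SMAD3, which enter the nucleus with SMAD4, while SMAD7 is an inhibitory SMAD that is itself induced by the pathway. In liver, TGF-beta1 is the classical inducer of collagen production by hepatic stellate cells.

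All coordinates are from GRCm38 (mm10), as annotated in GENCODE mouse release 21. Tgfb1 (ENSMUSG00000002603) lies at chr7:25687002-25705077 on the plus strand, Tgfb2 (ENSMUSG00000039239) at chr1:186622792-186705989 on the minus strand and Tgfb3 (ENSMUSG00000021253) at chr12:86056745-86079041 on the minus strand. Ltbp1 (ENSMUSG00000001870) lies at chr17:75005568-75392512 on the plus strand and Ltbp2 (ENSMUSG00000002020) at chr12:84783212-84876532 on the minus strand. Tgfb3 and Ltbp2 are thus on the same chromosome. Tgfbr1 (ENSMUSG00000007613) lies at chr4:47353222-47414931 on the plus strand and Tgfbr2 (ENSMUSG00000032440) at chr9:116084293-116175360 on the minus strand. Smad3 (ENSMUSG00000032402) lies at chr9:63646767-63757994 on the minus strand. Exons of Tgfb2, Tgfb3 and Ltbp2 overlap opposite-strand genes, and since use of strand in the counting is not stated, reads of such partners could not be told apart. The partners held few counts of their own, at most 6 in any library (D030025P21Rik, beside Ltbp2).

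The promoters of 3 of the genes that were higher in MCD liver and have a single RefSeq start, Tgfb1, Tgfb2 and Ltbp2, are shown to let their base composition and SMAD-type motifs be compared. The sequences are RefSeq windows of GRCm38.p6, printed 5′ to 3′ on the strand of the gene and ending at the last base upstream of the annotated gene start. Capitals mark CAGAC, the core of the SMAD-binding element, read on both strands (GTCTG on the other strand). The stretches are chr7:25686752-25687001 (plus) for Tgfb1, chr1:186705990-186706239 (minus) for Tgfb2 and chr12:84876533-84876741 (minus) for Ltbp2.
Tgfb1: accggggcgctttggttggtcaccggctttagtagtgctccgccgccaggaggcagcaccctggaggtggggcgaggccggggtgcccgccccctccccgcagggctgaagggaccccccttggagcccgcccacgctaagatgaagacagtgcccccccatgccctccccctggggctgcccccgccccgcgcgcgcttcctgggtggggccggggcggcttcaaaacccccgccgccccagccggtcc
Tgfb2: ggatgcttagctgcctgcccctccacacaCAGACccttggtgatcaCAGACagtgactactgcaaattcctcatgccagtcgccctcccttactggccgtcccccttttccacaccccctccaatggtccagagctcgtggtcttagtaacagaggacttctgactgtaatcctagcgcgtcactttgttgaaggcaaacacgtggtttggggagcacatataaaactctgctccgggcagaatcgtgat
Ltbp2: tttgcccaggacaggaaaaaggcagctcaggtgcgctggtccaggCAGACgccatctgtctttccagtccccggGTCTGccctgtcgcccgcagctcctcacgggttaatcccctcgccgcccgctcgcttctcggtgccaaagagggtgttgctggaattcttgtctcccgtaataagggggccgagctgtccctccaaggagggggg

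The Tgfb1 stretch held 0 CAGAC cores, the Tgfb2 stretch 2 and the Ltbp2 stretch 2. This core is frequent, and 49.6% of the 32851 RefSeq promoter windows of 300 bases held it. The palindromic element GTCTAGAC, present in 0.213% of all windows, and the AP-1 element TGANTCA, present in 7.81%, were each found 0 times in the 9 windows examined here, of 7 members. No window of Tgfb3 or Smad7 was examined, so nothing is said of their promoters. The full Tgfb1 window of 300 bases was 77.0% G or C with 30 CpG dinucleotides and 6 copies of GGGCGG, the box bound by Sp1, which 35.7% of windows held at least once on either strand. The Tgfb2 window was 54.3% G or C with 10 CpG, and the Ltbp2 window 61.0% with 20 CpG. The median over all windows was 52.7% G or C with 7 CpG. These matches describe letters, not occupied sites.

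Library sizes ranged from 16793200 to 24915200 counts in the control group and from 16388600 to 24577800 in the MCD group. TMM scaling factors ran from 0.642 to 0.973 in control and from 1.07 to 1.26 in MCD libraries and therefore separated the diets. Genes detected per library did so as well (17469 to 18799 in control, 18880 to 19830 in MCD), and mitochondrial genes took 5.34% to 11.5% of counts in control and 5.49% to 7.79% in MCD libraries. The part of genes detected and mitochondrial share in the differences was not tested. Control replicate 12 had the lowest factor (0.642). With total counts alone the median log2 fold change (log2FC) over all genes shifted by 0.36, and 84.3% of called genes were higher in MCD, against 50.2% with TMM and 65.6% with upper-quartile factors. Levels are given as CPM, counts divided by the TMM-scaled library size, and a count of 3 stood for 0.109 to 0.227 CPM depending on the library. In such bulk tissue, more cells of a type and more RNA per cell cannot be told apart.

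Among the members, the TGF-beta ligands, Ltbp1, Ltbp2 and the type I receptor rose in MCD liver. Of the 9 members, 6 were called higher (Tgfb1, Tgfb2, Tgfb3, Ltbp1, Ltbp2 and Tgfbr1), 0 were called lower and 3 were not called (Tgfbr2, Smad3 and Smad7). A call required a Benjamini-Hochberg FDR of 0.01 or less in edgeR's quasi-likelihood test over the 14109 genes tested, and an absolute log2FC above 0.5. All 9 members passed the filter on low counts. Over all genes tested, 19.2% were called higher, 19.1% lower and 38.3% in either direction. In each of the 6 called members, every MCD library lay above every control library, a separation found in 9.5% of all genes tested (4.88% had every MCD library below every control library). The median log2FC was 1.21 over the 9 members and −0.10 over all genes tested.

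Tgfb1, the most studied ligand, was at 10.9, 18.4 and 25.3 CPM in the lowest, median and highest control library. In MCD libraries the corresponding levels were 31.1, 41.0 and 51.4 CPM. The groups did not overlap, and the mean went from 17.7 ± 4.71 to 40.9 ± 6.55 CPM (SD, n = 12 each), a log2FC of 1.21 (SE 0.13, 95% CI 0.95 to 1.47, edgeR FDR 8.00e-09). Tgfb2 was close to the limit of detection in control liver, with 3 counts in 3 libraries and a median of 0.576 CPM (range 0.177 to 2.10). In MCD liver it was at 3.06, 3.83 and 5.79 CPM (lowest, median, highest), from 68 to 136 counts per library. Its log2FC was 2.51 (SE 0.29, 95% CI 1.92 to 3.09, edgeR FDR 2.89e-08), with wide relative spread among the controls. Tgfb3 was at 0.586, 1.37 and 3.22 CPM in control and at 8.51, 10.98 and 21.02 CPM in MCD libraries. The highest Tgfb3 level was in MCD replicate 8, and the lowest MCD library was still above the highest control. The log2FC of Tgfb3 was 2.87 (SE 0.24, 95% CI 2.38 to 3.37, edgeR FDR 1.75e-10).

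**Figure D1:**
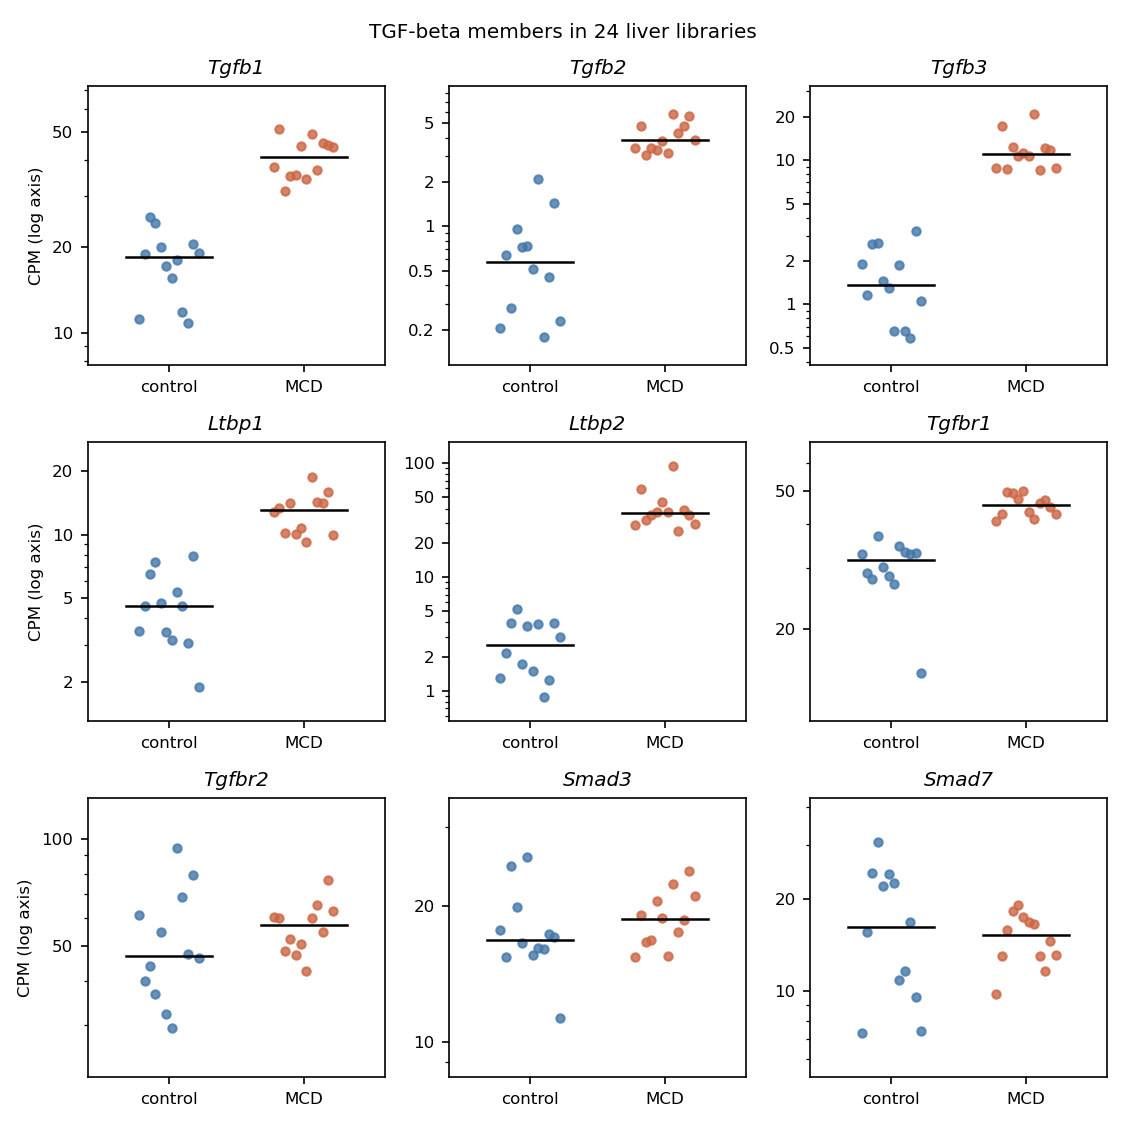
Levels of the 9 members in CPM (log axis, a separate range for each gene) in 12 control and 12 MCD livers; each point is a library and each line the median of a diet. The diets do not overlap for the ligands, the LTBPs and Tgfbr1, and they overlap for Tgfbr2, Smad3 and Smad7.

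LTBPs hold the latent complex in the matrix; LTBP2 is structurally related to the other LTBPs but is known as a microfibril-associated protein that does not bind latent TGF-beta. Ltbp1 was at 1.89, 4.60 and 7.88 CPM in the lowest, median and highest control library and at 9.26, 13.1 and 18.9 CPM in MCD libraries. Its log2FC was 1.45 (SE 0.18, 95% CI 1.08 to 1.81, edgeR FDR 1.07e-07). Ltbp2 had the largest log2FC of the 9 members, from 0.884, 2.55 and 5.26 CPM in control to 25.6, 36.3 and 93.6 CPM in MCD libraries. This was a 15.3-fold difference, with a log2FC of 3.93 (SE 0.27, 95% CI 3.38 to 4.49, edgeR FDR 6.02e-12). MCD replicate 8 held the highest value of 4 members (Tgfb2, Tgfb3, Ltbp1 and Ltbp2), and the Ltbp2 level of 93.6 CPM stood above the next library at 59.4 CPM. Over the fits that left out each library in turn, the log2FC of Ltbp2 stayed between 3.79 and 4.06.

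Of the receptor genes, Tgfbr1 was called and Tgfbr2 was not, and their difference rests on the within-library ratio given further on, which control replicate 12 affects. Tgfbr1 was at 15.0, 31.5 and 37.1 CPM in the lowest, median and highest control library, and its lowest value was in control replicate 12. In MCD libraries it was at 41.0, 45.4 and 50.02 CPM, all above the highest control. The log2FC was 0.59 (SE 0.094, 95% CI 0.40 to 0.79, edgeR FDR 4.47e-06) and lay between 0.56 and 0.65 in the fits leaving out each library in turn. Tgfbr2 was at 29.5, 47.0 and 94.7 CPM in control and at 42.7, 57.5 and 76.7 CPM in MCD libraries. The MCD libraries lay within the control range, and the log2FC was 0.10 (SE 0.16, 95% CI −0.22 to 0.42, edgeR FDR 0.578).

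The intracellular members were not called. Smad3, the transducer, was at 11.3, 16.8 and 25.6 CPM in the lowest, median and highest control library and at 15.4, 18.7 and 23.9 CPM in MCD libraries, with a log2FC of 0.09 (SE 0.11, 95% CI −0.13 to 0.30, edgeR FDR 0.498). Smad7 (ENSMUSG00000025880, on chromosome 18 from 75367529 to 75395935, plus strand) was at 7.30, 16.2 and 30.7 CPM in control and at 9.76, 15.2 and 19.1 CPM in MCD libraries. Its log2FC was −0.18 (SE 0.20, 95% CI −0.59 to 0.23, edgeR FDR 0.441), and the sign turned to 0.15 with scaling by total counts only. For Tgfbr2, Smad3 and Smad7 the interval holds differences in either direction, and equality is not shown.

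Levels of different genes were compared per kilobase of merged exons (CPM per kb). In control liver the receptors Tgfbr2 (6.47 ± 2.42, SD, n = 12) and Tgfbr1 (4.61 ± 0.868) stood highest, followed by Smad7 (3.74 ± 1.71), Tgfb1 (3.51 ± 0.934) and Smad3 (3.20 ± 0.715). Neighbours among these 5 genes overlapped in range. A gap followed, since Smad3 exceeded Tgfb3 (0.471 ± 0.259) in 12 of 12 libraries without overlap of their ranges, and Ltbp1 (0.437 ± 0.172), Ltbp2 (0.330 ± 0.174) and Tgfb2 (0.122 ± 0.0985) came last. In MCD liver the order opened with Tgfb1 (8.11 ± 1.3 CPM per kb), then Tgfbr1 (6.96 ± 0.492) and Tgfbr2 (6.95 ± 1.13), which changed places in 6 of 12 libraries. Ltbp2 (5.08 ± 2.28) moved from the eighth place to the fourth. Tgfb3 (3.50 ± 1.12), Smad3 (3.4 ± 0.487) and Smad7 (3.31 ± 0.634) overlapped, while Ltbp1 (1.2 ± 0.271) and Tgfb2 (0.709 ± 0.164) were lowest.

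Summed over the 3 ligands, RNA per kb went from 4.11 ± 1.16 to 12.3 ± 2.35 CPM per kb (SD, n = 12 each), and the groups did not overlap (2.41 to 5.85 in control, 9.27 to 16.9 in MCD). Tgfb1 made up 86.1% ± 5.17 of this sum in control and 66.2% ± 4.08 in MCD libraries. Tgfb3 made up 11.1% ± 4.50 in control and 28.0% ± 4.24 in MCD libraries. Tgfb2 made up 2.87% ± 2.01 in control and 5.75% ± 0.716 in MCD libraries. On this per-kb measure the ligand RNA of MCD liver was thus richer in Tgfb3, with Tgfb1 still the largest share in each of the 24 libraries (lowest share 57.4%). Ligand protein was not measured.

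Ratios of 2 members within a library do not depend on library scaling, and 7 were tested with a two-sided permutation test (100000 resamples, Benjamini-Hochberg adjustment over the 7). The log2 ratio of Tgfb3 to Tgfb1 counts rose by 1.78, from −3.60 ± 0.628 to −1.83 ± 0.303 (SD, n = 12 each), with no overlap (permutation p = 2.0e-05, the smallest these resamples can give, adjusted p = 4.67e-05). The ratio of Ltbp2 to Ltbp1 rose by 2.51 on the log2 scale, from −0.88 ± 0.772 to 1.63 ± 0.467, also without overlap (permutation adjusted p = 4.67e-05). The ratio of Tgfb2 to Tgfb1 rose by 1.58 (permutation adjusted p = 4.67e-05), though only 2 of 12 MCD libraries lay above the highest control, which was a library with high Tgfb2. Tgfbr1 to Tgfbr2 rose by 0.45 (permutation adjusted p = 0.0287), but without control replicate 12 the difference was 0.37 (permutation adjusted p = 0.0548) and with medians 0.41 (permutation adjusted p = 0.0591). The ratios of Tgfb2 to Tgfb3 (difference −0.20, permutation adjusted p = 0.528), Smad7 to Smad3 (−0.16, permutation adjusted p = 0.483) and Ltbp1 to Tgfb1 (0.28, permutation adjusted p = 0.140) did not pass the threshold of 0.05.

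**Figure D2:**
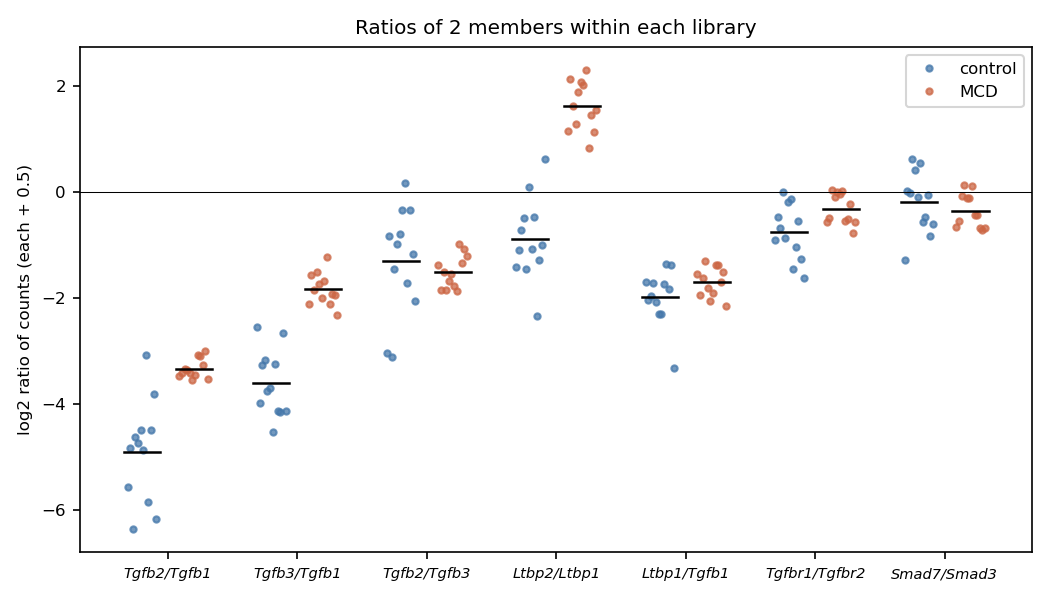
Log2 ratios of the counts of 2 members in the same library (0.5 added to each count), for 12 control and 12 MCD livers; points are libraries and lines are means. The diets do not overlap for Tgfb3/Tgfb1 and Ltbp2/Ltbp1, and they overlap for the other 5 ratios.

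The latent complex is opened or held by a further 10 genes, of which 6 were called higher and 1 lower (median log2FC 1.37), beside 19.2% and 19.1% of all genes tested. Itgb6 and Itgb8 encode the beta subunits of integrins that activate TGF-beta. Itgb6 was barely detected in control liver, with 0 to 8 counts and at most 3 counts in 10 of 12 libraries, and reached 24 to 100 counts in MCD libraries (1.10 to 4.26 CPM, edgeR FDR 5.01e-09). Itgb8 had a log2FC of 2.29 (SE 0.30, edgeR FDR 2.88e-07) from a low control level of 0.549 ± 0.419 CPM (SD, n = 12). Itgav, the alpha subunit that pairs with both and was named after its values were seen, was not called (log2FC −0.44, SE 0.16, edgeR FDR 0.0198). Ltbp3, a further LTBP, went from 7.07 ± 3.43 to 38.0 ± 9.09 CPM (log2FC 2.42, SE 0.20, edgeR FDR 1.54e-10). Not every LTBP rose. Ltbp4, named after its values were seen, was at 97.1 ± 27.0 CPM in control and 97.1 ± 20.7 CPM in MCD libraries. It was not called (log2FC 0.00088, SE 0.13, edgeR FDR 0.996). Thbs1, whose product thrombospondin-1 can release the factor from its propeptide, had a log2FC of 2.29 (SE 0.26, edgeR FDR 1.99e-08). Furin, the protease that cleaves the precursor, fell by 0.58 on the log2 scale (SE 0.082, edgeR FDR 1.05e-06), with every MCD library below every control. The Furin call was lost without control replicate 3 (log2FC −0.50), with total counts alone (−0.23), with upper-quartile factors (−0.43) and with at least 10 counts required in every library (−0.50).

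Of 4 co-receptor genes, 2 were called higher and 0 lower (median log2FC 0.52), a list too short to set apart from the 38.3% of all genes called in either direction. Bambi, a decoy receptor that lacks a kinase, rose from 4.67 ± 1.61 to 14.4 ± 4.06 CPM (SD, n = 12 each; log2FC 1.62, SE 0.17, edgeR FDR 6.48e-09). Acvrl1, a type I receptor best known from endothelium, had a log2FC of 1.21 (SE 0.12, edgeR FDR 3.98e-09). Tgfbr3, which encodes betaglycan and presents TGF-beta2 to the signalling receptors, was not called (log2FC −0.42, SE 0.13, edgeR FDR 0.00518).

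Among 12 SMAD transducers and regulators, 4 were called higher and 1 lower (median log2FC −0.13). Calls in 5 of 12 genes compare with 38.3% of all genes tested, whose median log2FC was −0.10, so the list as a whole was near the background. Pmepa1, a pathway target that sequesters receptor SMADs, rose from 5.55 ± 2.56 to 19.3 ± 5.82 CPM (SD, n = 12 each; log2FC 1.80, SE 0.21, edgeR FDR 4.57e-08). Tgif1, a corepressor of SMAD2 and SMAD3, had a log2FC of 1.03 (SE 0.065, edgeR FDR 1.81e-12). Fkbp1a, which binds the type I receptor and keeps it inactive, had a log2FC of 0.64 (edgeR FDR 3.22e-06), and Skil, which encodes the corepressor SnoN, had 0.58 (edgeR FDR 0.00179). Usp15, a deubiquitinase of the type I receptor, fell by 0.58 on the log2 scale (edgeR FDR 9.21e-08), a call lost with upper-quartile factors (log2FC −0.43) and total counts alone (−0.23). Smad2 (log2FC −0.28, edgeR FDR 0.00172) and Smad4 (−0.37, edgeR FDR 0.000261) were under the fold limit, and Smad2 turned to 0.07 with total counts alone.

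Of 13 genes known as TGF-beta targets, 10 were called higher and 2 lower (median log2FC 1.19), beside 19.2% higher and 19.1% lower over all genes tested. Timp1, an inhibitor of metalloproteinases, went from 0.822 ± 0.772 to 11.4 ± 2.32 CPM (SD, n = 12 each; log2FC 3.77, SE 0.34, edgeR FDR 6.49e-10). It was at 0 to 43 counts in control libraries, and limma-voom gave a log2FC of 4.42. Col1a1, the alpha1 chain of type I collagen, was at 6.56, 18.4 and 74.7 CPM in the lowest, median and highest control library and at 158, 208 and 311 CPM in MCD libraries (log2FC 2.88, SE 0.35, edgeR FDR 9.41e-08). Col1a2 had a log2FC of 2.34 (SE 0.28, edgeR FDR 6.86e-08). Ccn2, the connective tissue growth factor, had 2.09 (SE 0.27, edgeR FDR 1.68e-07). Klf10, an early TGF-beta response factor, fell by 1.13 on the log2 scale (SE 0.21, edgeR FDR 3.16e-05). Fn1, fibronectin, which hepatocytes secrete in large amounts, fell by 0.90 (SE 0.12, edgeR FDR 3.54e-07). The called target genes thus moved in both directions.

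**Figure D3:**
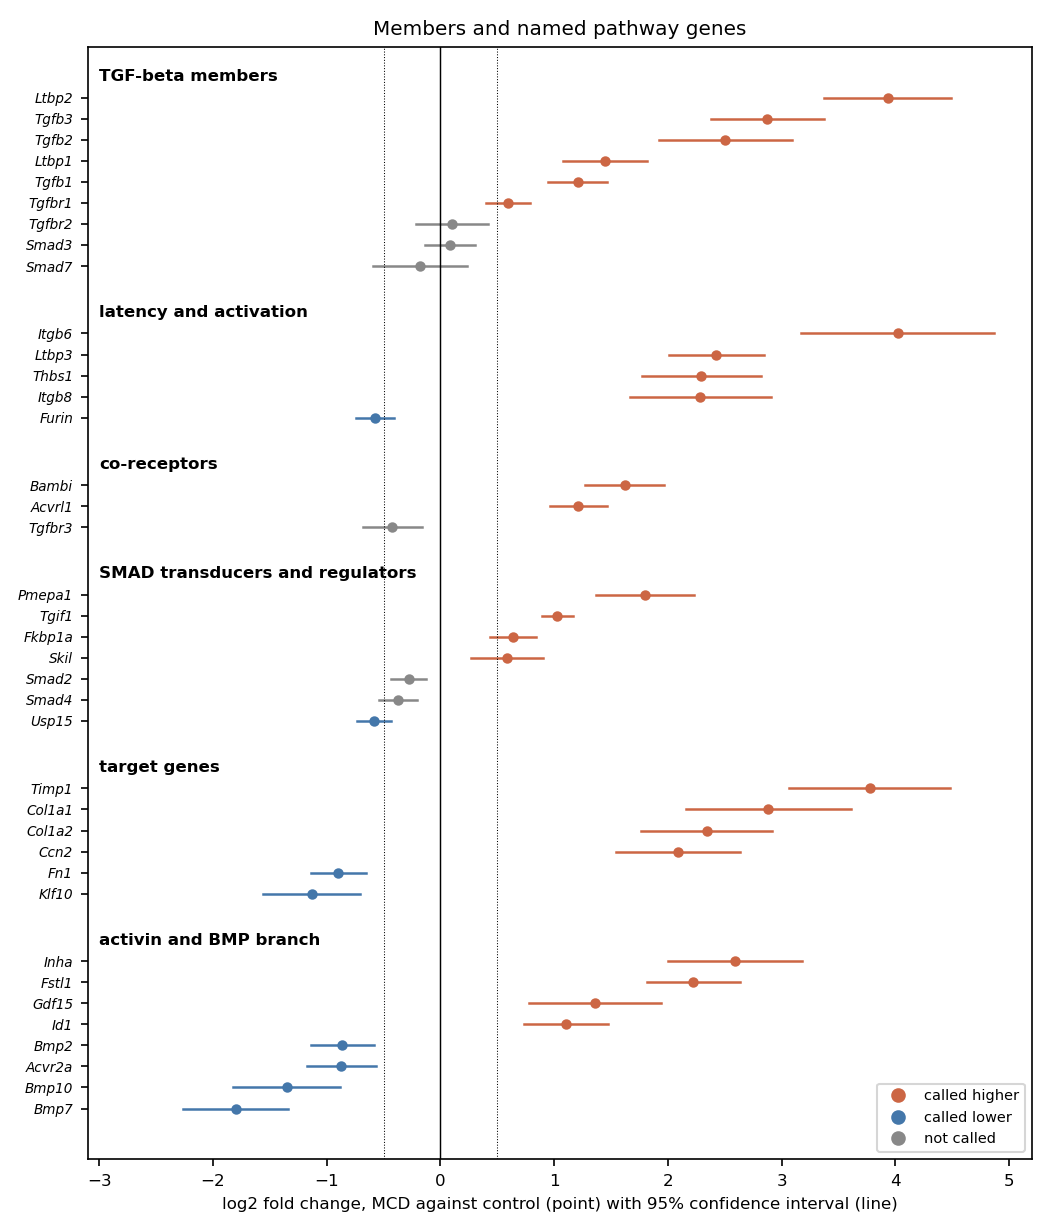
Log2 fold changes of MCD against control livers (points, edgeR) with 95% confidence intervals (lines) for the 9 members and the named genes of each pathway list; dotted lines mark a log2 fold change of 0.5 in either direction. Ligands, Ltbp1, Ltbp2, Ltbp3 and most named targets lie to the right, and Tgfbr2, Smad3 and Smad7 have intervals that include 0. Ltbp4 is not shown.

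A list of 29 genes covered the activin and BMP branch and other members of the same superfamily. Of these, 27 were tested, 6 were called higher and 6 lower. These shares (22.2% in each direction) and the median log2FC of −0.10 were close to those of all genes tested (19.2% higher, 19.1% lower, median −0.10). Fstl1, a secreted BMP modulator, had a log2FC of 2.22 (SE 0.20, edgeR FDR 4.19e-10), Gdf15 had 1.36 (edgeR FDR 0.000168) and Id1, a BMP target, had 1.10 (edgeR FDR 7.47e-06). Inha, the inhibin alpha subunit, had 2.59 (edgeR FDR 1.98e-08) but was at 1 to 18 counts in control libraries. The ligand genes Bmp7 (log2FC −1.80, SE 0.22, edgeR FDR 1.13e-07), Bmp10 (−1.35, edgeR FDR 1.28e-05) and Bmp2 (−0.86, edgeR FDR 4.31e-06) fell, as did the activin receptor gene Acvr2a (−0.87, edgeR FDR 1.53e-05).

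Markers of several cell types differed between the diets along with the ligands, and their part in the differences was not tested. Their counts compare with 19.2% called higher and 19.1% called lower over all genes tested, and the hepatocyte, mesothelial and platelet lists are too short or too mixed to set apart from those shares. Of the markers of monocyte-derived macrophages, 7 of 7 were called higher, and their summed level went from 114 to 325 CPM in control to 1042 to 2538 CPM in MCD libraries. Cholangiocyte markers rose in 5 of 5 cases (4.23 to 17.2 CPM in control, 44.7 to 108 CPM in MCD). Of 8 mesenchymal markers 5 were called higher and 1 lower (178 to 464 against 412 to 702 CPM), and of 7 lymphocyte markers 4 were called higher and 0 lower (3.60 to 12.4 against 10.2 to 23.6 CPM). Endothelial markers were lower in 5 of 6 cases (190 to 283 against 105 to 175 CPM) and Kupffer cell markers in 4 of 5 (106 to 311 against 36.0 to 165 CPM). The 6 hepatocyte markers defined the tissue, at 74620 to 171329 CPM in control and 56829 to 82372 CPM in MCD libraries, with 0 called higher and 2 lower. Of the mesothelial markers 1 of 3 rose (0.558 to 4.99 against 2.18 to 9.68 CPM), and of the 4 platelet markers 2 were tested and 1 rose (3.48 to 8.55 against 5.99 to 9.75 CPM). In each list 0 markers were at 0 counts in every library of a diet.

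Since TGF-beta is a known inducer of type I collagen, the level of each member was set against Col1a1 across the 12 libraries of a diet (log2 CPM, 18 relations, permutation p with 100000 resamples, adjusted over the 18). The points share library scaling and the cell makeup of the liver they came from. In MCD liver Tgfb2 had r = 0.90 (permutation adjusted p = 0.000900, rho = 0.87, adjusted p = 0.00261) and Tgfb1 had r = 0.87 (permutation adjusted p = 0.00261, rho = 0.87, adjusted p = 0.00261). Smad3, which was not called between the diets, had r = 0.79 within MCD liver (permutation adjusted p = 0.00868, rho = 0.82, adjusted p = 0.00706). These 3 relations held without the 2 libraries farthest from the member's median, at r = 0.82 (permutation adjusted p = 0.0245), 0.84 (permutation adjusted p = 0.0181) and 0.76 (permutation adjusted p = 0.0395). Tgfb3 (r = 0.74, permutation adjusted p = 0.0121, rho = 0.66, adjusted p = 0.0486), Ltbp1 (r = 0.70, permutation adjusted p = 0.0229, rho = 0.62, adjusted p = 0.0673) and Ltbp2 (r = 0.70, permutation adjusted p = 0.0186, rho = 0.67, adjusted p = 0.0454) rested on those libraries, with r of 0.51, 0.44 and 0.37 without them. Without MCD replicate 8 alone, r was 0.60 for Tgfb3, 0.57 for Ltbp1 and 0.52 for Ltbp2, and these 3 no longer passed (permutation adjusted p from 0.106 to 0.164).

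In control liver Ltbp2 had r = 0.84 with Col1a1 (permutation adjusted p = 0.00868, rho = 0.89, adjusted p = 0.00261), and r was 0.84 again without the 2 farthest libraries (permutation adjusted p = 0.0267). Tgfb3 (r = 0.80, permutation adjusted p = 0.00868, rho = 0.76, adjusted p = 0.0167) and Tgfb1 (r = 0.78, permutation adjusted p = 0.00960, rho = 0.87, adjusted p = 0.00261) both fell to r = 0.70 without their 2 farthest libraries and then missed the threshold (permutation adjusted p = 0.0700 and 0.0558). Ltbp1 had r = 0.60 (permutation adjusted p = 0.0668, rho = 0.76, adjusted p = 0.0167) and r = 0.95 without control replicate 12 (permutation adjusted p = 0.000180). Control replicate 12 combined the lowest Ltbp1 of its group with a Col1a1 level inside the range of the others. Tgfb2 (r = 0.44), Smad3 (0.06), Tgfbr2 (0.30), Tgfbr1 (−0.005) and Smad7 (−0.05) did not pass in control liver, nor did Tgfbr2 (0.56), Tgfbr1 (−0.20) and Smad7 (0.03) in MCD liver (permutation adjusted p from 0.0966 to 0.992). Tgfbr2 in MCD liver passed after regression of both genes on the sex-linked score described next (r = 0.64, permutation adjusted p = 0.0466) and with total counts alone (r = 0.69, permutation adjusted p = 0.0249). After that regression, over all 12 control libraries, r was 0.95 for Tgfb1 (permutation adjusted p = 0.000180) and 0.81 for Tgfb3 (permutation adjusted p = 0.00581). Over all 12 MCD libraries it was 0.81 for Tgfb3 (permutation adjusted p = 0.00375), 0.82 for Ltbp2 (permutation adjusted p = 0.00162) and 0.69 for Ltbp1 (permutation adjusted p = 0.0249). With total counts alone Ltbp1 in control liver passed too (r = 0.65, permutation adjusted p = 0.0340). The difference of a relation between the diets was not tested.

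**Figure D4:**
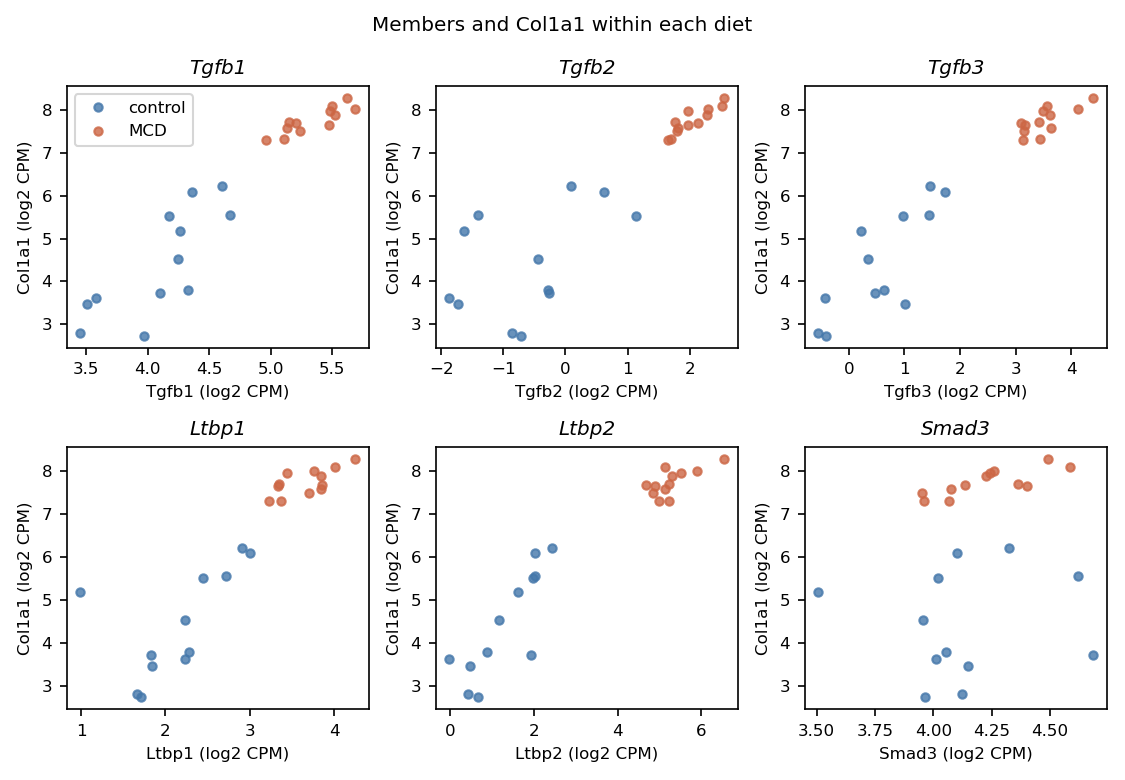
Level of Col1a1 (log2 CPM) against the level of 6 members (log2 CPM) in 12 control and 12 MCD livers, each point a library. In MCD liver Tgfb1 (r = 0.87), Tgfb2 (r = 0.90) and Smad3 (r = 0.79) rise along with Col1a1, and control replicate 12 is the leftmost point of the Ltbp1 and Smad3 panels.

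The series holds livers of males and females, but the labels give no sex for a single library. A sex-linked score was therefore used as a number, the log2 CPM of Xist, the RNA that coats the inactive X chromosome, minus the mean log2 CPM of the 4 Y-linked genes Ddx3y, Eif2s3y, Kdm5d and Uty. The score ran from −8.01 to −5.21 in 6 control and 6 MCD libraries and from 10.7 to 12.5 in the other 6 of each diet. In a fit of diet and score, 3.47% of all genes had a score coefficient past an FDR of 0.01, and so did 2 of the 9 members, Smad7 and Tgfbr2. Both belong to the members that were not called between the diets.

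Smad7 was at 7.30, 10.2 and 16.8 CPM (lowest, median, highest) in the 6 control libraries of low score and at 15.7, 23.4 and 30.7 CPM in the 6 of high score. In MCD liver it was at 9.76, 13.03 and 14.6 CPM in low-score and at 15.8, 17.1 and 19.1 CPM in high-score libraries, without overlap. Smad7 rose by 0.44 on the log2 scale per 10 units of the score (SE 0.073, edgeR FDR 0.000203). Tgfbr2 was at 46.3, 64.9 and 94.7 CPM in low-score and at 29.5, 38.3 and 55.0 CPM in high-score control libraries. In MCD liver the values were 54.9, 61.5 and 76.7 CPM against 42.7, 49.7 and 60.2 CPM. Tgfbr2 fell by 0.30 per 10 units (SE 0.063, edgeR FDR 0.00243), and this call was lost with total counts alone (edgeR FDR 0.0364). The slope of Smad7 was 0.57 (SE 0.091) in control and 0.27 (SE 0.099) in MCD liver, and the difference of −0.30 (SE 0.13) did not pass (edgeR FDR 0.318). For Tgfb1 the slopes were 0.22 (SE 0.086) in control and −0.10 (SE 0.092) in MCD liver, a difference of −0.33 (SE 0.13, edgeR FDR 0.239). None of the 9 members had a slope difference past an FDR of 0.01 in edgeR (smallest unadjusted p 0.0153, with 2 of 9 under 0.05), against 0.418% of all genes.

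**Figure D5:**
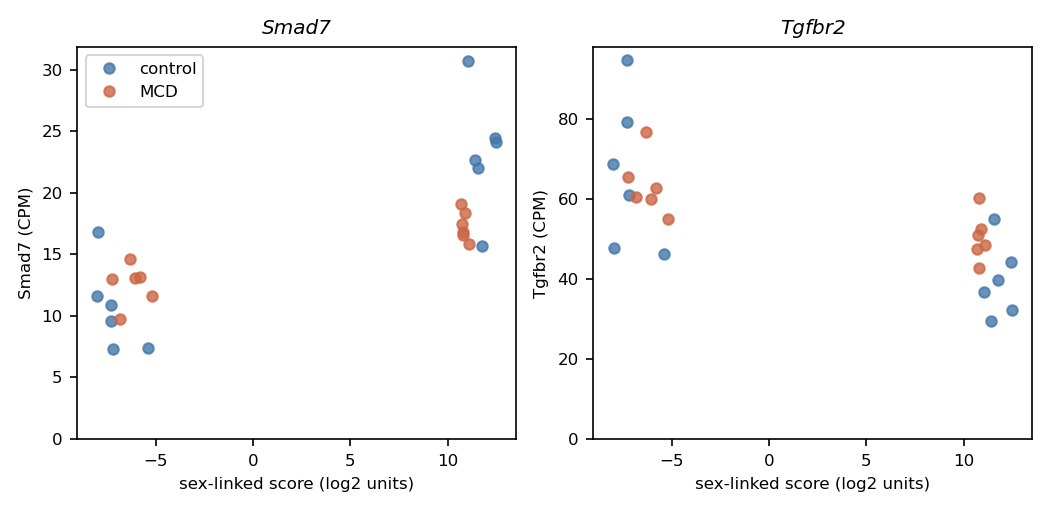
Levels of Smad7 and Tgfbr2 (CPM) against the sex-linked score (log2 units) in 12 control and 12 MCD livers, each point a library. Smad7 is higher and Tgfbr2 lower at high scores, and the MCD livers lie closer together than the control livers on both sides.

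The genes most like each member were sought over the 24 libraries after the mean of each diet was subtracted, among 13010 genes with a mean of at least 1 CPM, as a description. Tgfb1 was followed closest by Laptm5 (r = 0.93), a lysosomal membrane protein of blood cells, and by Pfkp and Fgd3 (r = 0.92 and 0.91). Tgfb2 was followed by Cd44 (r = 0.82), the hyaluronan receptor, and by Samd4 and Filip1l (both r = 0.81). Within MCD liver alone r was 0.58 for Cd44, 0.78 for Samd4 and 0.43 for Filip1l, against 0.84, 0.82 and 0.84 in control liver. Tgfb3 was followed by Loxl3 (r = 0.87), a lysyl oxidase-like crosslinking enzyme, and by Sema5a and Megf6 (both r = 0.87). Ltbp1 was closest to Fstl1 (r = 0.89), Prag1 (0.86) and Cdk14 (0.85), and Ltbp2 to Cavin1 (0.93), a caveolar coat protein, Cygb (0.90), a globin known from stellate cells, and Clcf1 (0.89). Tgfbr2 was closest to the thrombin receptor gene F2r (r = 0.92), then Snhg11 (0.89) and Aldh1a7 (0.87). Smad3 was closest to Agrn (0.88), Nfkb1 (0.87) and Tnrc18 (0.86), and Smad7 to Ankrd55 (0.90), Tmem164 (0.88) and Ubqln4 (0.86). Tgfbr1 was closest to Sumf1 (0.92), Pot1a (0.91) and Tgs1 (0.90), but these values came from the control libraries, with r of 0.96, 0.97 and 0.94 there and 0.29, 0.49 and 0.47 in MCD liver. Among the members themselves, Ltbp2 went with Tgfb3 (r = 0.79) and Tgfb1 (r = 0.78). Smad7 and Tgfbr2 had r = −0.63, and r = −0.01 once both were also regressed on the sex-linked score within each diet, an alternative chosen after seeing the data.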

How the data were processed

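RNA-Seq of whole liver was available for 24 libraries, 12 control and 12 MCD, grouped by their titles. The authors deposited raw read counts per Ensembl gene, without normalization. The submitters' processing notes name bcl2fastq, STAR 2.7.3a and mm10, and the study's methods name a stranded library kit. EQP and PISCES are named there for reads aligned to the human genome, while the program that counted the mouse reads and its use of strand are not given in the sources used here. Of 56205 rows, 51745 were named with GENCODE mouse release 21, and unnamed rows held 0.0808% of counts.

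Genes were kept by filterByExpr (14109), scaled by TMM and tested with glmQLFit and glmQLFTest in edgeR 4.0.16 (R 4.3.3) over all libraries without a covariate. An SE is the absolute log2FC divided by the square root of F. CPM was computed from TMM-scaled sizes, with a prior count of 2 on the log2 scale. The biological coefficient of variation was 26.8%. On simulated counts (14031 genes), 97 of 107 genes changed by a log2 of 1 and 84 of 87 changed by 2 were recovered. Permutation tests used scipy and were two-sided. The members, pathway lists and marker lists were chosen with earlier results of these data known. Named genes were all members, the 4 largest called rises and falls of each pathway list, defining components (Smad2, Smad4, Tgfbr3, Ccn2, Col1a1, and 1 that is not reported here), and the 3 genes most like each member. Alternatives were relative log expression, upper-quartile and total-count scaling, other low-count filters, DESeq2 1.42.0, limma-voom (limma 3.58.1), a replicate block, the sex-linked score as covariate, other thresholds and leaving out each library. Intervals and floors cover counting error or the spread between these libraries only.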

Additional observations from a re-analysis of the deposited data

How the results depend on the processing

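The 6 members called higher numbered 6 in all 24 fits leaving out a library (range 6 to 6) and in every other fit except 2. With at least 10 counts required in every library Tgfb2 and Tgfb3 were not tested and 4 were called, and with a log2 limit of 1 Tgfbr1 was not called and 5 were. The count called lower was 0 in every fit. Among the other pathway genes 28 were called higher and 10 lower. The lower count was 6 with upper-quartile factors, 6 with total counts alone, 6 with at least 10 counts in every library, 21 with the fold limit dropped and an FDR of 0.05 and 3 with a log2 limit of 1, and it ranged from 8 to 12 over the fits leaving out a library. With total counts alone the log2FC turned to 0.15 for Smad7 and 0.068 for Smad2, and 1 member in place of 2 passed for the sex-linked score. Relations to Col1a1 near 0 changed sign. With total counts alone r was 0.21 for Tgfbr1 and 0.11 for Smad7 in control and 0.31 for Tgfbr1 in MCD liver. Without control replicate 12 r was 0.41 for Tgfbr1 and 0.040 for Smad7 in control liver, and without MCD replicate 8 it was 0.019 for Tgfbr1 and −0.095 for Smad7 in MCD liver (libraries chosen after seeing the data, as was the slope difference). The cause of these shifts was not tested. Depth limits what can be said of control liver for Itgb6 (at most 3 counts in 10 of 12 libraries), Itgb8 and Inha (4 of 12 each), Tgfb2 (3 of 12) and Timp1 (2 of 12).

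Libraries of the diets share replicate numbers. The deviations of same-numbered libraries correlated above 0.1 in 8 of 12 pairs (from −0.28 to 0.35, median 0.233, against −0.059 for other pairs). Since not every pair did, and no label says what a number shares, the numbers were not taken as pairs. With the replicate block 6 members were called higher and 0 lower, the other pathway genes gave 28 higher and 8 lower, and 5 ratios passed in place of 4, with Ltbp1 to Tgfb1 added (0.28, permutation adjusted p = 0.0041).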

Other observations

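The 9 members varied more among control livers than among MCD livers, as a description with no test. The coefficient of variation of the CPM was 26.6% in control and 16.01% in MCD liver for Tgfb1, 81.0% and 23.1% for Tgfb2, and 54.9% and 31.9% for Tgfb3. It was 39.3% and 22.6% for Ltbp1, and 52.5% and 45.0% for Ltbp2, where MCD replicate 8 lay far above the others. The receptors had 18.8% and 7.06% (Tgfbr1) and 37.4% and 16.3% (Tgfbr2). For Tgfbr1, control replicate 12 lay far below the others, at 15.0 CPM against 27.0 CPM in the next lowest control library. Smad3 had 22.3% and 14.3%, and Smad7 had 45.7% and 19.2%. Counts of Tgfb2 in control liver were low (3 to 36 per library), so counting error adds to its spread. A larger spread in control liver was not particular to the members. Apoa1, a hepatocyte marker, was at 8692 ± 5078 CPM in control and 8423 ± 1526 CPM in MCD libraries (SD, n = 12 each). Nrros went the other way, from 7.84 ± 1.01 to 22.3 ± 4.01 CPM. The share of all genes that varied more in control liver was not computed.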
